A study of Mus musculus with 11 samples.

Results

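The genes described here make sterols and fatty acids or control that synthesis. They are 36 genes chosen by name, 22 in a sterol branch (5 regulators, 16 enzymes and 1 sterol carrier) and 14 in a fatty acid branch, out of 18194 genes with a probe set annotated to them alone. All 36 had such a probe set, and all 36 passed the filter on low values, as did 13713 of the 18194 genes of the whole array. The study profiled mouse skin after ABBV-075, also called mivebresib. The drug blocks the bromodomains of the BET proteins, which read acetylated histones and support transcription. Skin came from 4 mice at 6 h after 1 mg/kg of ABBV-075, from 4 mice at 24 h after the same dose and from 3 mice given vehicle, with 1 Affymetrix array per mouse. The strain, sex and age of the mice, the skin site and the hour of vehicle collection were not used here, as the labels do not state them.

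The SREBP transcription factors, encoded by Srebf1 and Srebf2, are made as membrane proteins of the endoplasmic reticulum, where the escort protein SCAP binds them and the INSIG proteins hold the complex in place. When membrane sterol runs low, SCAP carries them to the Golgi, proteases cut them, and the freed part enters the nucleus and binds sterol regulatory elements in the promoters of synthesis genes. SREBP2 acts mainly on cholesterol genes and SREBP1 mainly on fatty acid genes. In skin, keratinocytes make both kinds of lipid for the water barrier, sebaceous glands make sebum and dermal adipocytes store fat. Whole skin mixes these cells, and in such bulk samples fewer cells of a type and less RNA per cell cannot be told apart.

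Levels are log2(normalized intensity + 16), so that 4.00 is the floor, and changes are differences on that log2 scale with the standard error of the limma fit. The deposited arrays differed in brightness, with a median intensity of 18.9 to 57.4 at 6 h, 28.7 to 46.3 at 24 h and 40.5 to 51.9 in vehicle skin. The 5′ to 3′ signal ratio of beta-actin, a low value of which accompanies shortened RNA, was 0.289 ± 0.156 at 6 h (SD, n = 4), 0.406 ± 0.145 at 24 h (SD, n = 4) and 0.547 ± 0.0563 in vehicle skin (SD, n = 3). It was under 0.3 on 3 arrays, at 0.0725 in 6 h replicate 5, 0.284 in 6 h replicate 3 and 0.198 in 24 h replicate 2. For Gapdh the 5′ to 3′ ratio on these 3 arrays was 0.104, 0.711 and 0.804, in that order. In vehicle replicates 1, 3 and 4 it was 0.888, 0.911 and 0.698, so only 6 h replicate 5 was low by both ratios. The tissue label was borne out by skin markers: Krt10, a keratin of the upper epidermis, lay between 12.43 and 13.81 on the log2 scale over the 11 arrays.

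At 6 h the sterol genes had on balance slightly higher levels than in vehicle skin, and no gene passed the test over all genes. Of the 22 sterol genes, 16 had a change above 0, and their median change was 0.228 on the log2 scale. Over all genes tested, 50.3% had a change above 0 and the median change was 0.0034. Limma called 0 of the 36 members at an adjusted p under 0.05, and 0% of the 13713 genes tested. At an unadjusted p under 0.05, 6 of the 22 sterol genes were higher and 0 were lower, while 8.01% of all genes tested were higher by that rule. These 6 were Hmgcs1, Sqle, Lss, Cyp51, Dhcr7 and Stard4, a share of 27.3% of the branch. The members were chosen with earlier results of these data known, so this share is not an independent test against all genes.

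The median and both counts depended on the scaling and on single arrays. The median was 0.15 without vehicle replicate 1, 0.121 with the mean of all probe sets of a gene, 0.41 with the replicate number as a block and, before the change of the median gene was taken off, -0.554 as deposited. After median scaling 16 sterol genes again had a change above 0, and as deposited the count was 15 once the change of the median gene, -0.678 on the log2 scale, was taken off, but 1 of 22 before that. The count of 6 genes was 2 without vehicle replicate 1, where 4.76% of all genes were higher by that rule. It was 3 without 6 h replicate 1, 2 or 5, where 8.72%, 6.2% and 6.45% of all genes were. Without the 3 arrays of low actin ratio it was 10, where 6.87% of all genes were. It was 3 with the mean of all probe sets of a gene (6.59% of all genes) and 3 with the replicate number as a block (6.4%). As deposited relative to the median gene it was 0, where 3.08% of all genes were.

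**Figure D1:**
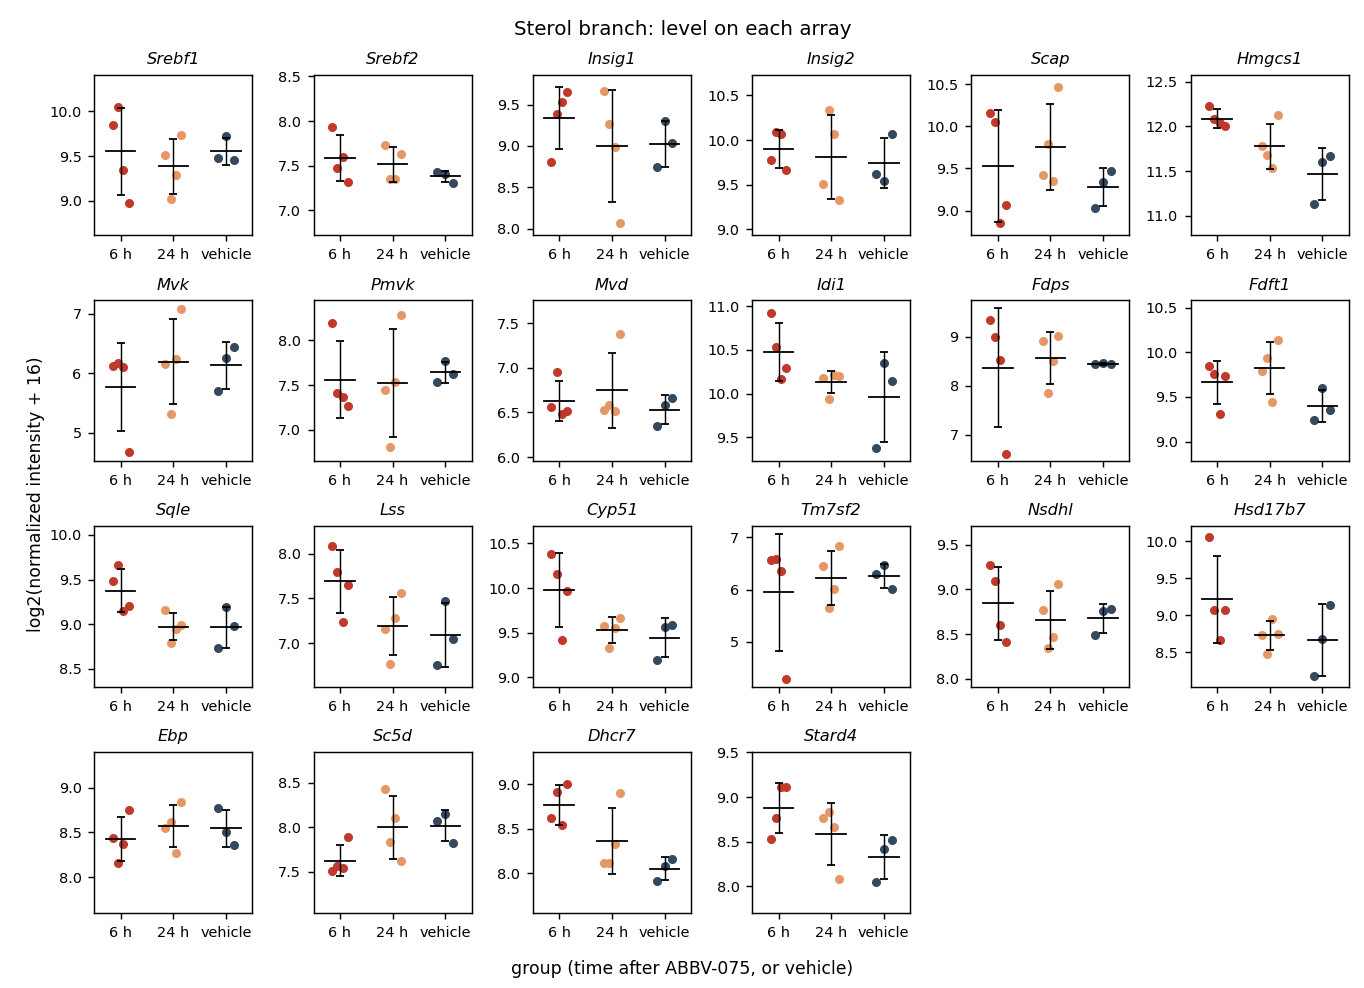
Level of each sterol branch gene on each array, as log2(normalized intensity + 16), at 6 h, at 24 h and in vehicle skin; points are arrays, long horizontal lines are means and error bars are SD (n = 4, 4 and 3). Each panel has its own range of levels; the 6 h points of Hmgcs1, Dhcr7 and Stard4 lie above all vehicle points, and Mvk, Fdps and Tm7sf2 each have 1 low point at 6 h.

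Promoters of 4 genes are shown because SREBP acts together with the factor NF-Y, which binds the CCAAT box, and because these genes stand for the results below: Hmgcs1, Lss and Cyp51 are among the 6 sterol genes above, and Fasn is the central fatty acid enzyme. Each is the 250 bases before the gene's start, from RefSeq on GRCm38.p6, written 5′ to 3′ in the direction of the gene. Capitals mark the sterol regulatory element core TCACNCCAC and the CCAAT box, each on either strand (CCAAT or ATTGG). The windows lie at chr13:119690101-119690350, plus strand, for Hmgcs1; chr10:76531355-76531604, plus strand, for Lss; chr5:4104698-4104947, minus strand, for Cyp51; and chr11:120824548-120824797, minus strand, for Fasn.
Hmgcs1: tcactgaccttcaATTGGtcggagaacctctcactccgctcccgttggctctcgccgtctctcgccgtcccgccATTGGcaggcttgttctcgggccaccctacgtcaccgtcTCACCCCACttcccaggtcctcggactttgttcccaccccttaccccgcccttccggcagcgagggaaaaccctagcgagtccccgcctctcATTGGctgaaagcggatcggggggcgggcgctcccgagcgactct
Lss: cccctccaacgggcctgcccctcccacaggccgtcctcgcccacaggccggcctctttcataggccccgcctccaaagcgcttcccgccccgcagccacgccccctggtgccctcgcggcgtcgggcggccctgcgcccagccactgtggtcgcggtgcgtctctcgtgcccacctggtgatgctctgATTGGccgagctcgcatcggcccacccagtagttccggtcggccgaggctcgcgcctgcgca
Cyp51: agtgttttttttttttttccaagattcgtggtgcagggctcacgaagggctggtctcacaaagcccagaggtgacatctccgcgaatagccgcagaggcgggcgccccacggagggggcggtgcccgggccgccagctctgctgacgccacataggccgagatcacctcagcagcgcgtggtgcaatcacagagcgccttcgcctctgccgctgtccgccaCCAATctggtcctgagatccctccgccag
Fasn: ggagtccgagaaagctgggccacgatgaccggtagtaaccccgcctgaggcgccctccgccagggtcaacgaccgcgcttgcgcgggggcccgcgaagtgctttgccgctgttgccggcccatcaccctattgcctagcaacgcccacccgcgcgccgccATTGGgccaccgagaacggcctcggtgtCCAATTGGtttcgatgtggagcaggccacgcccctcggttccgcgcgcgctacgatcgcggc

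A window was found for 29 of the 36 members, 18 sterol and 11 fatty acid genes, and a gene with several starts was counted once if any window held the motif. The CCAAT box was in the windows of 17 of 18 sterol genes (94.4%) and 7 of 11 fatty acid genes (63.6%), against 39.6% of the 11012 tested genes with a window. The GC box GGGCGG, which Sp1 binds, was found for 94.4% of the sterol and 54.5% of the fatty acid genes, against 60.3% of tested genes. The E-box CACGTG was found for 27.8% of the sterol and 9.09% of the fatty acid genes, against 9.55% of tested genes. The nuclear receptor motif AGGTCA was found for 16.7% of the sterol and 27.3% of the fatty acid genes, against 13.2% of tested genes. The exact element core was found for 1 of 18 sterol genes (5.56%), Hmgcs1, with its first base at -137 from the start. It was found for 0 of 11 fatty acid genes and for 1.26% of tested genes. Elements that differ from this exact string were not searched for, so a window without a match may still hold one. All motifs were searched on both strands and matches were allowed to overlap, as the Fasn matches at -62 and -59 do. These matches describe letters in a window; binding was not measured.

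Hmgcs1 encodes the cytosolic HMG-CoA synthase, which starts the mevalonate pathway. Its level was 12.23, 12.08, 12.04 and 12.00 at 6 h, 11.78, 11.68, 11.53 and 12.12 at 24 h, and 11.13, 11.60 and 11.66 in vehicle skin. Every 6 h array was above every vehicle array, while the 24 h arrays overlapped with both other groups. The change was 0.62 ± 0.19 at 6 h, or 1.54-fold (limma adjusted p = 0.191), and 0.31 ± 0.19 at 24 h (limma adjusted p = 0.697). Its 5 probe sets had changes of 0.102 to 0.984 at 6 h and of -0.149 to 0.764 at 24 h.

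Dhcr7 encodes the reductase of the last step to cholesterol. Its level was 8.62, 8.91, 8.54 and 8.997 at 6 h, 8.11, 8.12, 8.33 and 8.90 at 24 h, and 7.92, 8.08 and 8.16 in vehicle skin. The 6 h arrays lay above all vehicle arrays, and among the 24 h arrays replicate 4 stood within the 6 h values. The change was 0.71 ± 0.22 at 6 h, or 1.64-fold (limma adjusted p = 0.189), and 0.31 ± 0.22 at 24 h (limma adjusted p = 0.737). The 24 h change was 0.13 without 24 h replicate 4.

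Stard4 encodes a soluble carrier of cholesterol between membranes. Its level was 8.53, 8.76, 9.11 and 9.11 at 6 h, 8.77, 8.84, 8.67 and 8.08 at 24 h, and 8.04, 8.42 and 8.52 in vehicle skin. The lowest 6 h array, at 8.532, lay just above the highest vehicle array, at 8.519. The change was 0.55 ± 0.23 at 6 h (limma adjusted p = 0.284) and 0.26 ± 0.23 at 24 h (limma adjusted p = 0.784), and 2 further probe sets gave 0.17 and 0.203 at 6 h, so that the mean of probe sets gave 0.31.

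Hmgcs1, Dhcr7 and Stard4 were the 3 sterol genes whose 6 h and vehicle arrays did not overlap, all higher at 6 h, which is 13.6% of the branch. Of all genes tested, 9.76% lay wholly higher and 8.8% wholly lower at 6 h, so the share in the branch was near the background.

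Sqle, squalene epoxidase, adds the oxygen that precedes ring closure and is a control point of the pathway. Its level was 9.49, 9.66, 9.15 and 9.21 at 6 h, 9.16, 8.79, 8.95 and 8.99 at 24 h, and 8.73, 9.19 and 8.98 in vehicle skin. The groups overlapped, since the lower 6 h arrays lay beside the highest vehicle array. The change was 0.41 ± 0.18 at 6 h (limma adjusted p = 0.31) and 0.0038 ± 0.18 at 24 h (limma adjusted p = 0.996).

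Lss, lanosterol synthase, closes the sterol rings. Its level was 8.08, 7.79, 7.24 and 7.65 at 6 h, 7.16, 6.77, 7.28 and 7.56 at 24 h, and 6.76, 7.47 and 7.04 in vehicle skin. At 6 h replicate 3 lay inside the vehicle range and the other 3 arrays lay above it. The change at 6 h was 0.60 ± 0.26 (limma adjusted p = 0.288), and a second probe set that passed the filter gave 0.493. A further probe set, above the filter's level on 1 array, gave -0.216, and the mean of probe sets gave 0.29.

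Cyp51, the demethylase of lanosterol, had the same arrangement of arrays. Its level was 10.39, 10.15, 9.41 and 9.96 at 6 h, 9.57, 9.33, 9.55 and 9.67 at 24 h, and 9.19, 9.56 and 9.59 in vehicle skin. Again 6 h replicate 3 lay inside the vehicle range and the other 3 arrays of that time lay above it. The change at 6 h was 0.53 ± 0.23 (limma adjusted p = 0.287), and a second probe set gave 0.511. A further probe set, above the filter's level on 0 arrays, gave -1.007, and the mean of probe sets gave 0.0124.

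With limma array weights, which give less weight to arrays that fit the group means poorly, 5 of the 36 members (13.9%) were called at 6 h, where 2507 genes (18.3% of all genes tested) were, so that the share among the members was below that of all genes: Hmgcs1 (0.53, limma adjusted p = 0.0192), Dhcr7 (0.73, 0.00867), Cyp51 (0.56, 0.0292), Sc5d (-0.50, 0.0389) and Fads1 (-0.57, 0.0462). With equal weights the counts were 0 members and 0 genes.

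The other 11 sterol genes at 6 h, all enzymes, were split, with 5 changes above 0 and 6 below. They ran from -0.388 for Sc5d (lathosterol oxidase) to 0.551 for Hsd17b7 (a ketone reductase of the demethylation steps), with a smallest limma adjusted p of 0.339. Sc5d was at 7.51, 7.57, 7.54 and 7.89 at 6 h, 8.43, 7.84, 8.10 and 7.62 at 24 h, and 8.07, 8.15 and 7.82 in vehicle skin. Its 6 h replicates 1, 2 and 3 lay below all vehicle arrays, and its other probe sets gave -0.311 and -0.42. Idi1, the isomerase of the isoprenoid building blocks, was at 10.92, 10.54, 10.16 and 10.29 at 6 h, 10.18, 9.94, 10.21 and 10.20 at 24 h, and 9.37, 10.35 and 10.14 in vehicle skin. Vehicle replicate 1 was the lowest of all arrays for Idi1, and the groups overlapped.

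Fdps, which makes farnesyl diphosphate, was at 9.35, 8.998, 8.52 and 6.61 at 6 h, 8.92, 7.85, 8.51 and 9.02 at 24 h, and 8.43, 8.47 and 8.43 in vehicle skin. The lowest array was 6 h replicate 5, as it was for Mvk (mevalonate kinase), at 4.67 there against 6.11 to 6.17 on the other 6 h arrays, and for Tm7sf2 (a sterol reductase), at 4.28 against 6.36 to 6.58. That array had the actin ratio of 0.0725, and the part of RNA length in these values was not tested. Without it, 20 of the 22 sterol genes had a change above 0 at 6 h, with a median of 0.303. Pmvk (phosphomevalonate kinase), Mvd (its decarboxylating successor), Fdft1 (squalene synthase), and Nsdhl and Ebp (enzymes between lanosterol and cholesterol) overlapped between 6 h and vehicle, with changes of -0.12 to 0.26.

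None of the 5 regulators was called at either time. Srebf1 was at 9.85, 10.05, 9.34 and 8.98 at 6 h, 9.51, 9.02, 9.29 and 9.74 at 24 h, and 9.48, 9.72 and 9.46 in vehicle skin. The 6 h arrays lay on both sides of the vehicle arrays, and the change was 0.0010 ± 0.27 at 6 h (95% interval -0.581 to 0.583) and -0.16 ± 0.27 at 24 h (95% interval -0.747 to 0.417). The limma adjusted p was 0.999 at 6 h and 0.884 at 24 h.

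Srebf2 was at 7.93, 7.48, 7.60 and 7.32 at 6 h, 7.73, 7.35, 7.35 and 7.63 at 24 h, and 7.43, 7.41 and 7.31 in vehicle skin. All groups overlapped, and the change was 0.20 ± 0.18 at 6 h (95% interval -0.195 to 0.604) and 0.13 ± 0.18 at 24 h (95% interval -0.265 to 0.535). A second, dimmer Srebf2 probe set gave -1.06 at 6 h and -0.057 at 24 h, so the probe sets disagreed in direction.

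Insig1, itself an SREBP target, was at 8.80, 9.38, 9.53 and 9.65 at 6 h, 9.66, 9.27, 8.99 and 8.07 at 24 h, and 8.74, 9.30 and 9.03 in vehicle skin. The 24 h arrays spread on both sides of the other groups, with a change of 0.31 ± 0.34 at 6 h (limma adjusted p = 0.674) and -0.03 ± 0.34 at 24 h (limma adjusted p = 0.989). Insig2, the second retention protein, was at 9.77, 10.09, 10.07 and 9.66 at 6 h, 9.50, 10.34, 10.07 and 9.33 at 24 h, and 9.62, 9.54 and 10.07 in vehicle skin. Its groups overlapped, with a change of 0.16 ± 0.26 at 6 h and 0.07 ± 0.26 at 24 h. Scap was at 10.15, 10.05, 8.86 and 9.07 at 6 h, 9.42, 9.79, 9.36 and 10.47 at 24 h, and 9.03, 9.34 and 9.47 in vehicle skin. The 6 h arrays of Scap fell into a higher pair, replicates 1 and 2, and a lower pair, replicates 3 and 5, and the change was 0.25 ± 0.36 at 6 h and 0.48 ± 0.36 at 24 h (limma adjusted p = 0.749).

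At 24 h the median change of the sterol branch was smaller than at 6 h. Of the 22 genes 16 had a change above 0, where 47.6% of all genes did, with a median of 0.076 against -0.0202 for all genes tested. At an unadjusted p under 0.05 no sterol gene was higher or lower, where 3.15% of all genes were higher and 4.48% lower, and limma called 0% of all genes at an adjusted p under 0.05. The groups overlapped for every sterol gene, where 5.1% of all genes lay wholly higher and 6.05% wholly lower. Fdft1, which joins farnesyl units into squalene, had the smallest p of the branch. Its level was 9.85, 9.76, 9.31 and 9.73 at 6 h, 9.79, 9.93, 9.44 and 10.14 at 24 h, and 9.25, 9.60 and 9.36 in vehicle skin. At 24 h replicate 3 lay inside the vehicle range and the other 3 arrays lay above it, and the change was 0.42 ± 0.21 (limma adjusted p = 0.654). Its probe set is of the kind marked x, whose probes may bind other transcripts, and a further probe set gave 0.426.

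Same-numbered 24 h and vehicle arrays, replicates 1, 3 and 4, were also compared as pairs, although the labels state no pairing of mice. The 24 h array was higher in all 3 pairs for 3 sterol genes, Scap, Fdps and Dhcr7 (13.6%), and 1 fatty acid gene, Acsl3 (7.14%), where 16% of all genes were, and it was lower in all 3 for no member, where 18.6% of all genes were.

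The remaining 12 sterol genes at 24 h ran from -0.123 for Pmvk to 0.219 for Mvd, with 8 above 0. Without vehicle replicate 1 the median of the branch at 24 h was -0.005 and 11 of 22 genes had a change above 0. As deposited, relative to the median gene, 11 of 22 did too.

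**Figure D2:**
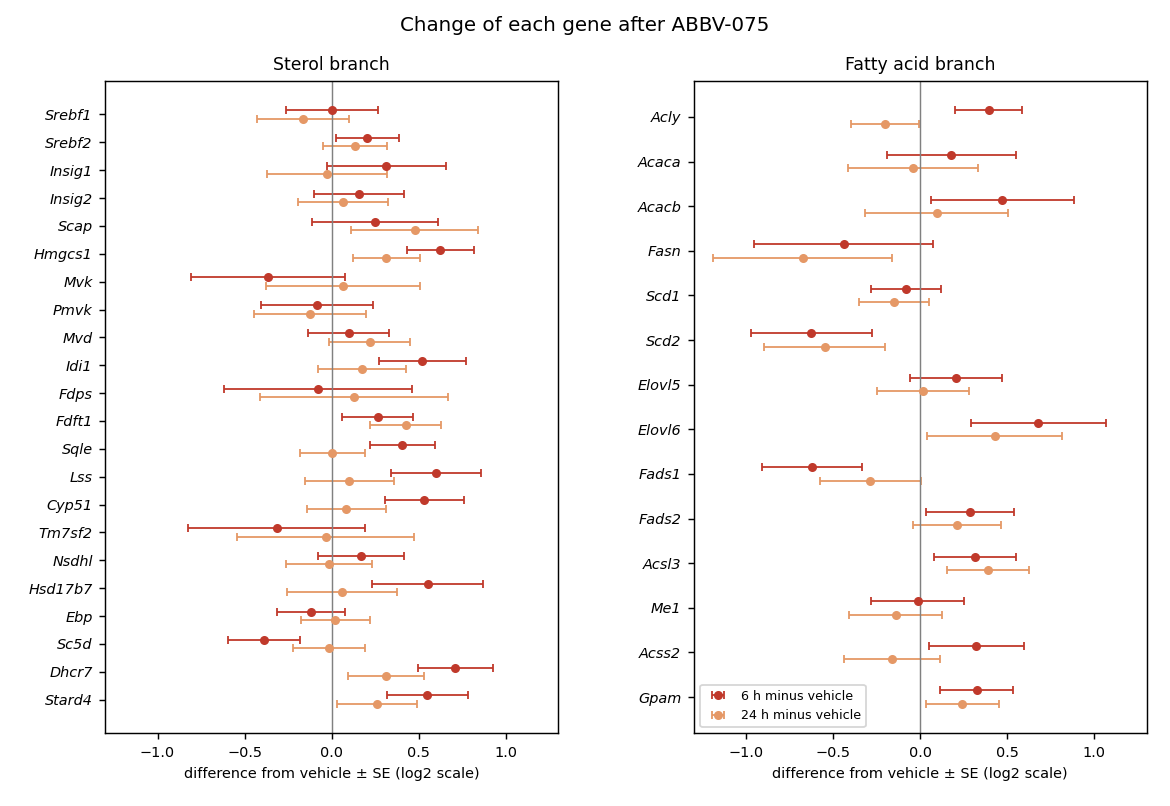
Change of each gene from vehicle on the log2 scale, at 6 h and at 24 h, with the standard error of the limma fit; left, the sterol branch, and right, the fatty acid branch. Dhcr7 and Hmgcs1 have 6 h changes of 0.71 and 0.62. Fasn, Scd2 and Fads1 lie below 0 at both times, as do Scd1, Me1, Pmvk, Tm7sf2 and Sc5d. No change passed the adjusted threshold.

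At 6 h more fatty acid genes lay above than below vehicle skin. Of the 14 genes, 9 (64.3%) had a change above 0 and 5 below, where 50.3% of all genes had a change above 0, with a median of 0.247, and limma called none. The difference between the branches was not tested. At an unadjusted p under 0.05, 0 of the 14 were higher or lower, where 8.01% of all genes were higher and 8.05% lower. Without vehicle replicate 1 the median was 0.093, and 11 of 14 genes had a change above 0 with median scaling, 10 as deposited relative to the median gene and 0 as deposited before that.

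Acly, ATP citrate lyase, supplies cytosolic acetyl-CoA to both pathways. Its level was 11.62, 11.76, 11.41 and 11.53 at 6 h, 11.18, 10.90, 10.84 and 11.02 at 24 h, and 10.85, 11.58 and 11.13 in vehicle skin. The 6 h arrays were close together and the vehicle arrays far apart, with vehicle replicate 3 among the 6 h values. The change was 0.39 ± 0.19 at 6 h (limma adjusted p = 0.348), 0.22 without vehicle replicate 1 and 0.18 with the mean of probe sets. The Acly probe set used is also of the x kind, and others that passed the filter gave -0.496 to 0.641. Acss2, which makes acetyl-CoA from acetate, was at 8.91, 9.42, 8.89 and 9.03 at 6 h, 8.91, 8.42, 8.27 and 8.71 at 24 h, and 8.18, 9.36 and 8.69 in vehicle skin, with vehicle replicates far apart. Me1, malic enzyme, which supplies reducing power, had a 6 h change of -0.013.

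Fasn, fatty acid synthase, builds palmitate. Its level was 10.09, 10.96, 9.73 and 8.91 at 6 h, 10.74, 8.84, 9.37 and 9.78 at 24 h, and 9.82, 10.98 and 10.27 in vehicle skin. The arrays of each group spread over more than 1 log2 unit and the groups overlapped. The change was -0.44 ± 0.51 at 6 h (limma adjusted p = 0.696) and -0.68 ± 0.51 at 24 h (limma adjusted p = 0.749), and without the 3 arrays of low actin ratio the 6 h value was 0.17. Acaca and Acacb, the acetyl-CoA carboxylases that feed Fasn and control fat oxidation, had 6 h changes of 0.18 and 0.47, with overlapping groups.

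Scd1, the main stearoyl-CoA desaturase of skin, makes monounsaturated fatty acids. Its level was 13.57, 13.38, 13.00 and 13.06 at 6 h, 13.48, 13.20, 12.94 and 13.12 at 24 h, and 13.10, 13.50 and 13.40 in vehicle skin. All groups overlapped, with a change of -0.08 ± 0.20 at 6 h (limma adjusted p = 0.866) and -0.15 ± 0.20 at 24 h (limma adjusted p = 0.862). These directions depended on scaling, since median scaling gave 0.55 at 6 h and 0.27 at 24 h.

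Scd2, a second desaturase of this family, was at 9.81, 9.72, 9.84 and 9.33 at 6 h, 10.79, 9.81, 9.35 and 9.06 at 24 h, and 10.23, 10.59 and 10.08 in vehicle skin. Every 6 h array lay below every vehicle array, and at 24 h replicate 1 lay above all vehicle arrays while the other 3 lay below them. The change was -0.63 ± 0.35 at 6 h (limma adjusted p = 0.402) and -0.55 ± 0.35 at 24 h (limma adjusted p = 0.704). Of the other Scd2 probe sets, 1 gave -0.877 and 1 gave 0.032 at 6 h.

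Fads1, the delta-5 desaturase of polyunsaturated fatty acids, was at 7.51, 7.53, 7.90 and 7.49 at 6 h, 8.54, 7.88, 8.21 and 7.14 at 24 h, and 8.50, 8.11 and 8.09 in vehicle skin. Its 6 h arrays also lay below all vehicle arrays, and its 24 h arrays reached from below to above them. The change at 6 h was -0.62 ± 0.29 (limma adjusted p = 0.32), -1.45 as deposited (limma adjusted p = 0.0468). It was the 1 member of 36 called as deposited (2.78%), where 6.21% of all genes were called, 850 of 852 lower. A second Fads1 probe set gave 0.447 at 6 h, and the mean of probe sets gave -0.0875. Scd2 and Fads1 make up 14.3% of the branch, where 8.8% of all genes lay wholly lower at 6 h. Fads2, the delta-6 desaturase, had a 6 h change of 0.29.

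Elovl6, which lengthens palmitate, was at 10.69, 11.32, 10.82 and 9.78 at 6 h, 9.81, 10.65, 10.12 and 11.02 at 24 h, and 9.45, 10.37 and 10.10 in vehicle skin. At 6 h replicate 5 was low and the other 3 arrays lay above the vehicle range, with a change of 0.68 ± 0.39 (limma adjusted p = 0.412) and of 0.43 ± 0.39 at 24 h, where array weights gave -0.14. Elovl5, which lengthens polyunsaturated chains, was at 11.96, 11.73, 10.99 and 10.96 at 6 h, 11.32, 10.97, 11.24 and 11.34 at 24 h, and 11.24, 11.48 and 10.89 in vehicle skin. As for Scap, 6 h replicates 1 and 2 were high and 3 and 5 low.

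Gpam, which starts glycerolipid synthesis, was at 11.32, 11.62, 11.29 and 11.14 at 6 h, 10.84, 11.30, 11.17 and 11.72 at 24 h, and 10.95, 11.15 and 10.95 in vehicle skin. The groups overlapped by the lowest 6 h array, with a change of 0.33 ± 0.21 at 6 h (limma adjusted p = 0.469) and 0.24 ± 0.21 at 24 h, and a second probe set gave -0.469 at 6 h. Acsl3, which activates fatty acids for lipid synthesis, was at 8.12, 7.56, 7.41 and 7.80 at 6 h, 7.35, 8.21, 7.79 and 7.86 at 24 h, and 7.20, 7.38 and 7.64 in vehicle skin. It had the smallest p of the branch at 24 h, with a change of 0.39 ± 0.24 (limma adjusted p = 0.694), and the groups overlapped.

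At 24 h, 6 of the 14 fatty acid genes had a change above 0, with a median of -0.091. Of all genes tested, 47.6% had a change above 0, and the median was -0.0202. The direction rested on single arrays, since without vehicle replicate 3 the median was 0.102 with 9 of 14 above 0, and without 24 h replicate 1 it was -0.228 with 5 of 14. At 24 h 0 of the 14 were higher or lower at an unadjusted p under 0.05, where 3.15% of all genes were higher and 4.48% lower. The 8 genes for which no 24 h change is given above ran from -0.287 for Fads1 to 0.211 for Fads2.

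**Figure D3:**
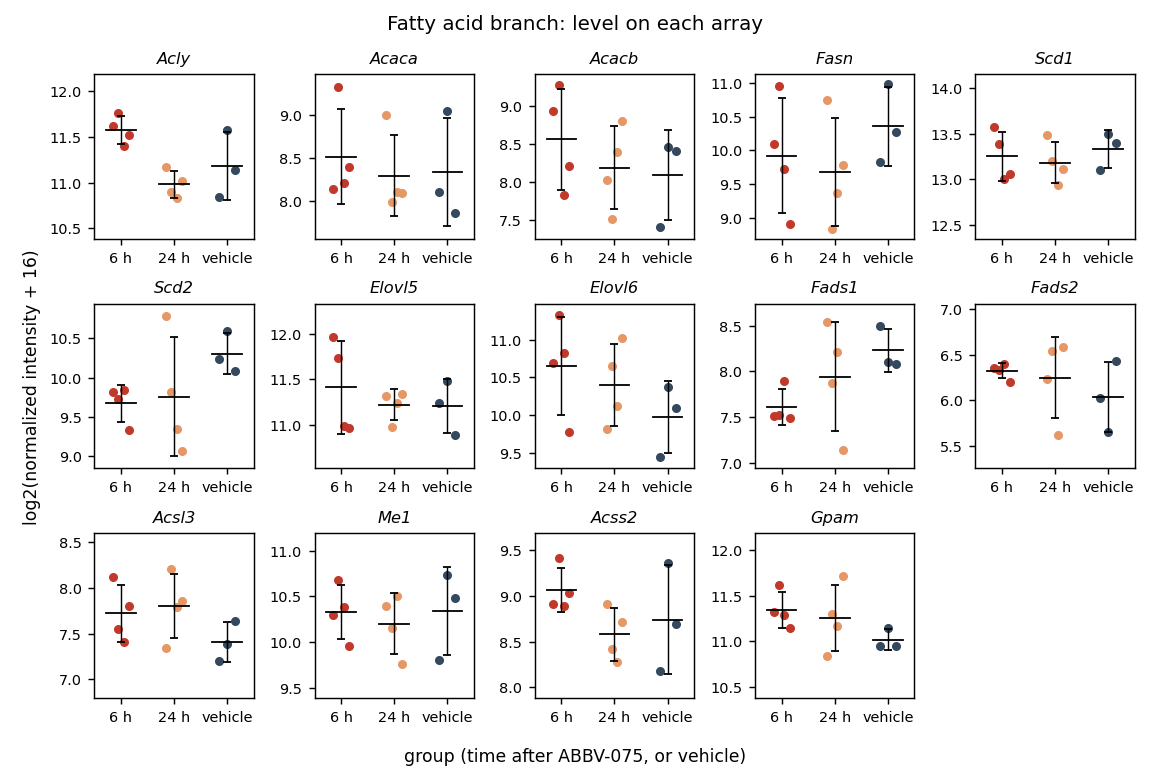
Level of each fatty acid branch gene on each array, as log2(normalized intensity + 16), at 6 h, at 24 h and in vehicle skin; points are arrays, long horizontal lines are means and error bars are SD (n = 4, 4 and 3). Each panel has its own range of levels; all 24 h points of Acly lie below all 6 h points, and the 6 h points of Scd2 and Fads1 lie below all vehicle points.

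Set directly against 6 h, the 24 h arrays had on balance lower levels of the members, by an amount that depended on single arrays. Of the sterol genes 14 of 22 and of the fatty acid genes 11 of 14 had a 24 h minus 6 h change below 0, with medians of -0.127 and -0.16, while 47.5% of all genes had a change above 0 and the median gene was at -0.0191. Without 6 h replicate 2 the fatty acid median was -0.017 with 8 of 14 genes below 0, and without 6 h replicate 1 the sterol median was -0.054. Without 6 h replicate 5 both were -0.256, and with the replicate block they were -0.32 for the sterol and -0.222 for the fatty acid genes. Limma called 0% of all genes here too. At an unadjusted p under 0.05, 1 gene of each branch was lower, Sqle and Acly, where 5.48% of all genes were lower and 3.73% higher.

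Acly was the member with the smallest p, with a 24 h minus 6 h change of -0.59 ± 0.18 (limma adjusted p = 0.344). Its highest 24 h array, at 11.18, lay below its lowest 6 h array, at 11.41, which made Acly the 1 member whose groups did not overlap, where 3.52% of all genes lay wholly lower and 1.91% wholly higher at 24 h. Sqle had a change of -0.40 ± 0.17 (limma adjusted p = 0.51), Lss of -0.50 ± 0.24 (limma adjusted p = 0.559), Cyp51 of -0.45 ± 0.21 (limma adjusted p = 0.551) and Dhcr7 of -0.40 ± 0.20 (limma adjusted p = 0.589). In the other direction, Sc5d had a change of 0.37 ± 0.19 and Fads1 of 0.33 ± 0.27. Acss2, Acacb and Elovl5 had changes of -0.48 ± 0.25, -0.37 ± 0.38 and -0.19 ± 0.25. These comparisons share the 6 h arrays with the 6 h minus vehicle values, so they are not a separate line of evidence.

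By array, the sterol branch was highest in 6 h replicates 1 and 2. The median deviation of its 22 genes from their vehicle means was 0.536, 0.423, 0.037 and 0.093 at 6 h, 0.133, -0.074, 0.067 and 0.34 at 24 h, and -0.186, 0.119 and 0.056 in vehicle skin. The fatty acid branch gave 0.269, 0.551, -0.065 and -0.071 at 6 h, 0.131, -0.258, -0.123 and -0.095 at 24 h, and -0.233, 0.331 and -0.052 in vehicle skin. Vehicle replicate 1 was the lowest vehicle array for both branches.

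Markers of several skin cell types differed between the same arrays. All 9 basal keratinocyte markers tested had a change above 0 at 6 h, with a median of 0.566, and 0 passed the limma test. By array their median deviation was 1.259, 0.897, 0.077 and -0.216 at 6 h, 0.196, 0.295, -0.095 and 1.591 at 24 h, and -0.535, 0.22 and 0.291 in vehicle skin, so that 6 h replicates 1 and 2 were high for these markers as for the sterol genes. Their summed intensity ran from 13918 to 34722 at 6 h, from 13904 to 48602 at 24 h and from 10556 to 20588 in vehicle skin, and Itgb4 was at the floor in 6 h replicate 5 and vehicle replicate 4.

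All 10 adipocyte markers tested had a change below 0 at both times, with a median of -1.02 at 6 h and -0.72 at 24 h, and 0 passed the limma test. Their summed intensity ran from 21013 to 39690 at 6 h, from 13633 to 44113 at 24 h and from 40019 to 48500 in vehicle skin. Lep was at the floor in 24 h replicate 4. In 24 h replicates 1, 2, 3 and 4 the median deviation of the adipocyte markers was 0.062, -0.782, -0.184 and -2.418. Of 13 sebocyte markers 9 had a change above 0 at 6 h, with a median of 0.11 and a summed intensity of 14498 to 21302 at 6 h, 13392 to 14980 at 24 h and 14814 to 16538 in vehicle skin. Of 11 suprabasal keratinocyte markers 9 had a change above 0 at 6 h, with a median of 0.274 and a summed intensity of 44945 to 66730 at 6 h, 41032 to 55264 at 24 h and 45858 to 53559 in vehicle skin. Among the 6 h arrays, both keratinocyte groups, the sebocyte markers, the sterol genes and the fatty acid genes were all highest in replicates 1 and 2. The median deviation of the sebocyte markers at 6 h was 0.225, 0.185, -0.107 and -0.081 in replicates 1, 2, 3 and 5. The adipocyte markers were lowest in replicates 1 and 2. The part of cell makeup in the levels of the sterol and fatty acid genes was not tested.

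**Figure D4:**
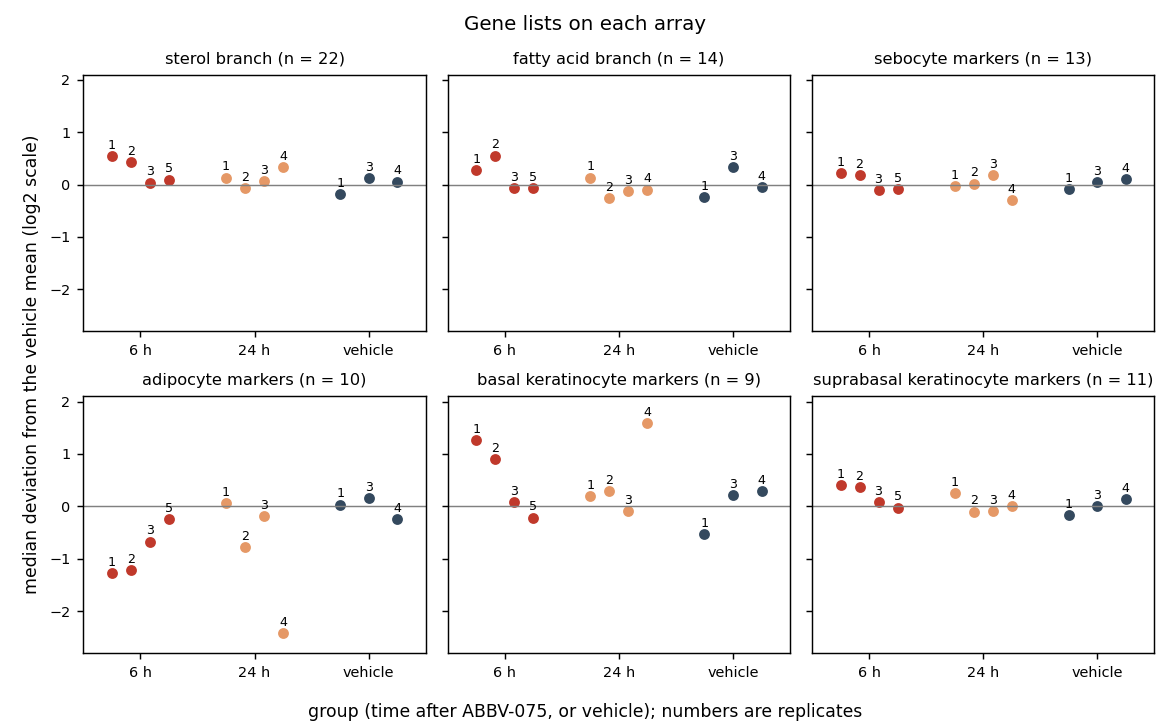
Median deviation of each gene list from its vehicle means on the log2 scale, for each array at 6 h, at 24 h and in vehicle skin; points are arrays, labelled with their replicate number. The sterol genes reach 0.536 and 0.423 in 6 h replicates 1 and 2, where basal keratinocyte markers reach 1.259 and 0.897 and adipocyte markers lie at -1.28 and -1.211.

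Other genes of the 2 pathways did not pass the test either. Of 21 further sterol genes 17 were tested, and at 6 h 9 of them had a change above 0, with a median of 0.0233. By unadjusted p under 0.05, 1 was higher, Lbr (a sterol reductase that also anchors chromatin), at 0.41 (limma adjusted p = 0.262), and 1 lower, Nr1h3 (the oxysterol receptor LXR alpha), at -1.13 (limma adjusted p = 0.147), where 8.01% of all genes were higher and 8.05% lower. Msmo1, the next demethylation enzyme after Cyp51, had a change of 0.65 at 6 h and of -0.74 for 24 h minus 6 h. At 24 h 4 of the 17 had a change above 0, and Nr1h3 and Mylip, an LXR target that degrades lipoprotein receptors, were the 2 lower by unadjusted p, at -0.80 and -0.46, where 4.48% of all genes were lower.

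Of 29 further fatty acid genes 26 were tested, and at 6 h 6 were higher and 5 lower by unadjusted p under 0.05, where 8.01% of all genes were higher and 8.05% lower. Among the 6 were Acsl4 (arachidonate activation) at 0.60, Aacs (acetoacetate activation) at 0.80 and Elovl4 (very long chains of barrier ceramides) at 0.51. The rest of the 6 were Cpt1a at 0.65, Hacd3 at 0.64 and Ppara at 0.42. Of the 5, Pcx (pyruvate carboxylase) was at -0.84 and Pparg (the adipocyte and sebocyte regulator) at -1.06. Agpat2 and Dgat2 (triglyceride synthesis) were at -1.04 and -0.67, and Pgd (a source of reducing power) at -0.42. At 6 h Acsl4, Aacs, Elovl4 and Pcx were picked by smallest p. The other higher and lower genes were named outside that choice, after their values were seen. At 24 h Ppara and Elovl4 were higher by unadjusted p under 0.05, at 0.54 and 0.49, where 3.15% of all genes were. Pparg and Dgat2 were lower, at -1.33 and -0.83, where 4.48% of all genes were. The limma adjusted p of these ran from 0.178 to 0.297 at 6 h and from 0.532 to 0.563 at 24 h. Pparg and Dgat2 also stand in the sebocyte marker list.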

How the data were processed

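Total RNA of skin was amplified with a 3′ IVT Plus kit and biotin-labelled, per the labels' protocols, and hybridised to 1 array per mouse. The authors deposited linear intensities for 45101 probe sets. For software and scaling: not given in the sources used here. A single gene was annotated for 34958 probe sets, several for 932 and none here for 9211.

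The 36 members and all gene lists were chosen with earlier results of these data known. Intensities were quantile-normalized, set to at least 0 and taken as log2(intensity + 16), which understates changes of dim genes. The brightest probe set over all arrays stood for a gene. A gene was kept where this probe set exceeded its array's 40th percentile on 3 or more arrays. The comparison used lmFit and eBayes of limma 3.58.1 (R 4.3.3), 1 fit over 11 arrays, two-sided, with Benjamini-Hochberg adjustment over 13713 genes and a threshold of 0.05. The labels do not say more about the mice than group and replicate, and the number of arrays limits precision.

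Every member is named. Described in full are, per branch and contrast, the 5 of smallest p plus Srebf1, Srebf2, Insig1, Insig2, Scap, Hmgcs1, Sqle, Fasn and Scd1, and up to 4 further pathway genes per list. Replicate numbers were checked through correlations of deviations from group means: same-numbered 24 h and vehicle arrays gave 0.246, 0.136 and 0.203, all over 0.1, and were compared as pairs. Those of unlike number ran from -0.351 to 0.213, and 0.213, 0.168, 0.133 and 0.116 among them also passed 0.1. The check thus does not single out same-numbered arrays, and the labels state no pairing of mice. As in the design, the fit has no block and the block is an alternative, and counts within pairs were added after seeing the data. Same-numbered 6 h and vehicle arrays gave -0.12 and -0.074, and 24 h and 6 h arrays -0.064, -0.347 and 0.169. At most 3 intensities were identical between 2 arrays. Data were simulated for 6 h minus vehicle over 13713 genes, each gene varying independently, without differences shared between genes on an array. Of 100 genes with a planted log2 change of 1, 35% were called, and of 100 with a change of 2, 82%. Of the unchanged genes, 6 were called. Real arrays share such differences, so these shares need not hold for them. The changes of the members at 6 h ran from -0.626 to 0.711, so both planted sizes were larger. Alternatives covered normalization, pseudocount, filter, probe sets, array weights, replicate block, arrays of low actin ratio and each array left out. Skeletal muscle, hair shaft, fibroblast and macrophage marker lists were also followed.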

Additional observations from a re-analysis of the deposited data

Results flagged for a closer look

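For each member, the array farthest from the other 3 of its group was set against the range of that group at 6 h and 24 h. Of 72 sets, 9 held an array that stood apart. The nominal rate is about 1 in 20 for independent sets, but these sets share their arrays. The share over all genes was not worked out, so 9 of 72 cannot be read as an excess in these members. At 6 h, replicate 5 was low for Mvk at 4.673, with the others at 6.114 to 6.172, and for Tm7sf2 at 4.284, with the others at 6.359 to 6.579. The same array was high for Sc5d, at 7.886, with the others at 7.511 to 7.57. Replicate 1 at 6 h was high for Pmvk, at 8.198 against 7.269 to 7.411, replicate 2 for Mvd, at 6.954 against 6.485 to 6.556, and replicate 3 for Fads1, at 7.901 against 7.492 to 7.529. At 24 h, replicate 4 was high for Mvd, at 7.378 against 6.513 to 6.578, replicate 2 low for Idi1, at 9.937 against 10.183 to 10.208, and replicate 1 high for Acaca, at 8.999 against 7.986 to 8.104. The actin 5′ to 3′ ratio was 0.0725 in 6 h replicate 5 and 0.198 in 24 h replicate 2, and its part in these values was not tested.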

How the results depend on the processing

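With quantile normalization and equal array weights no member was called in any contrast, whichever array was left out. Genes called at 6 h numbered 852 as deposited (2 higher, 850 lower), 2 as deposited relative to the median gene, 13 without the filter, 7 with the mean of probe sets and 2507 with array weights. At 24 h they numbered 6 as deposited, 1 without the filter and 59 with array weights, and for 24 h minus 6 h 3 with median scaling, 2 with the mean of probe sets and 410 with array weights. With single arrays left out they ran from 0 to 23 at 6 h (23 without 24 h replicate 4), 0 to 1 at 24 h, and 0 to 7 for 24 h minus 6 h (7 without 6 h replicate 5). Members called at 6 h were 1 as deposited (Fads1; 2.78% of members, 6.21% of all genes) and 5 with array weights (13.9%, against 18.3%). The replicate block gave 1 called gene at 6 h, changed no call of a member and moved the sterol median to 0.41 at 6 h and 0.158 at 24 h. Deposited values without further normalization gave a sterol median of -0.554 at 6 h and -0.597 at 24 h, and a fatty acid median of -0.463 and -0.712, beside a median gene of -0.678 and -0.622. Under the other settings the medians moved by less than the SD between arrays, 0.2 for the sterol and 0.253 for the fatty acid branch.

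As deposited relative to the median gene, Srebf1 was -0.13 and Scd1 0.35 at 6 h, and Insig2 -0.032, Sqle -0.12 and Scd1 0.19 at 24 h. Median scaling gave Scd1 0.55 at 6 h, and Sqle -0.067 and Scd1 0.27 at 24 h. The mean of probe sets gave Srebf2 -0.43 and Gpam -0.072 at 6 h. Array weights gave Insig1 0.12, Sqle -0.066, Elovl6 -0.14 and Gpam -0.032 at 24 h. The replicate block gave Insig1 -0.055 at 6 h, and Insig2 -0.047 and Sqle -0.0033 at 24 h. Without the 3 arrays of low actin ratio, Fasn was 0.17 and Scd1 0.14 at 6 h and Insig2 -0.11 at 24 h. With single arrays left out, Srebf1 ran from -0.16 to 0.19 and Scd1 from -0.20 to 0.0027 at 6 h, and Insig1 from -0.25 to 0.28, Insig2 from -0.11 to 0.23 and Sqle from -0.11 to 0.12 at 24 h. The cause of these changes of direction was not tested.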

Other observations

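Probe sets of the same gene were compared for their direction, with no test. Of 13 sterol genes with several probe sets past the filter, 11 had all of them on the same side of vehicle at 6 h and 6 at 24 h. Of 12 such fatty acid genes, 7 did at 6 h and 8 at 24 h. Over the 43 sterol probe sets past the filter, 32 lay above vehicle at 6 h, with a median of 0.251, and 29 at 24 h, with a median of 0.084. Over the 32 of the fatty acid branch, 21 lay above at 6 h, with a median of 0.208, and 15 at 24 h, with a median of -0.016. These probe sets share their arrays and are not replicates.

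Among the other cell types followed, all 10 macrophage and all 10 fibroblast markers had changes below 0 at both times. The medians were -0.80 and -0.43 at 6 h and -0.90 and -0.63 at 24 h, and limma called none. At 24 h replicate 4 lay far below the rest. In replicates 1, 2, 3 and 4 the median deviation was -0.171, -0.27, -0.182 and -2.895 for macrophage markers. For fibroblast markers it was -0.032, -0.527, -0.1 and -1.968. All 8 hair shaft markers tested had changes below 0 at 6 h, with a median of -1.002. Their summed intensity was 7783 in vehicle replicate 4, 417 and 374 in vehicle replicates 1 and 3, and 265 to 1556 at 6 h. At 24 h it ran from 282 to 9160, highest in replicate 2. The part of vehicle replicate 4 in the 6 h median was not tested. Of 11 skeletal muscle markers, 10 had changes above 0 at 24 h, with a median of 0.30.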
